A study of Bos taurus with 10 samples.

Results

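Fibroblast growth factors (FGFs) are secreted ligands that bind receptor tyrosine kinases on the cell surface together with heparan sulphate. The active receptor passes its signal through docking proteins to RAS, RAF, MEK and the kinase ERK, which switches on target genes that include several inhibitors of the same cascade. In the mouse blastocyst, FGF4 from epiblast precursors pushes neighbouring inner cells towards the primitive endoderm, which is called hypoblast in cattle, and its gene is a known target of SOX2.

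A set of 10 genes of this system was followed in single bovine early blastocysts with and without *SOX2*. They are the ligands *FGF4* and *FGF2*, the receptors *FGFR1*, *FGFR2*, *FGFR3* and *FGFR4*, the feedback inhibitors *SPRY2*, *SPRY4* and *DUSP6*, and the target gene *ETV5*. They were chosen by name as parts of the pathway, with earlier results of these data known. The study itself names *FGFR4* as down-regulated in these embryos, so its fall here is not an independent result. Of the 10 genes, 9 matched a row among the 20112 genes of the deposited table. *FGF4* was not analysed here. All 9 passed the filter on low values, a mean of at least 1, which left 20056 genes for testing.

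The study compared 5 WT embryos with 5 *SOX2* KO embryos. Both received mRNA of BE3, a cytosine base editor, as zygotes, and the KO group also received sgRNAs that turn codons of *SOX2* into stop codons. The labels give day 7.0 after fertilization, earlier than the collection day in the study's methods. Each library came from 1 whole blastocyst, in which epiblast, hypoblast and trophectoderm cells are mixed. According to the study, a minority of embryos edited in this way are mosaic. The study also reports that it genotyped the sequenced embryos from part of their cDNA, and that their total cell numbers were similar. In its separate cell counts, *SOX2* KO blastocysts had significantly fewer cells in total, on the collection day and later. Fewer cells of one type and less RNA per cell cannot be told apart in such samples. WT embryos are called nc1 to nc5 and *SOX2* KO embryos ko1 to ko5, after the columns of the table.

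Libraries held 2223670 to 5134855 reads on genes in WT and 2578284 to 4337342 in *SOX2* KO (exact permutation p = 0.349, two-sided). *RN18S1*, which encodes ribosomal RNA of the small subunit, accounted for 26.4% to 37.0% of reads in WT embryos against 32.5% to 45.0% in *SOX2* KO (exact permutation p = 0.0635), and more genes were detected in *SOX2* KO, 17987 to 19813 against 15919 to 18092 (exact permutation p = 0.0159). *SOX2* mRNA itself had normalized read counts of 56.5 to 93.4 in WT against 26.4 to 82.1 in *SOX2* KO, with a log2 fold change of -0.55 (limma adjusted p = 0.167). A stop codon need not remove the mRNA, so this value does not check the genotype. Of 16 epiblast markers 8 fell, next to 3.20% of all genes tested. The summed level of the 16 was 3702 to 4544 in WT against 2242 to 2878 in *SOX2* KO. Several of these markers were also picked by the study on the same embryos. In blastocysts of its collection day, the study found the SOX2, POU5F1 (OCT4) and NANOG proteins in trophectoderm as well as in inner cells. These markers therefore do not measure the epiblast alone. None of the markers listed in the table for the 3 lineages was at 0 in all embryos of either group.

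Values below are normalized read counts, that is, reads scaled by each embryo's size factor from DESeq2. Groups were compared with limma on log2(normalized read count + 1), a scale on which changes of low genes come out smaller than they are. A gene was said to rise or fall where its p, adjusted by Benjamini-Hochberg over all 20056 genes, was at most 0.05. A gene that also changed at least 2-fold was called. In *SOX2* KO embryos 3 of the 9 genes fell, namely *FGFR4*, *SPRY2* and *SPRY4*, and 0 rose. Among all genes tested, 3.20% fell and 10.4% rose. *SPRY2* and *SPRY4* were also called lower, against 1.16% of all genes called lower and 8.93% called higher (1792 higher and 232 lower, or 630 and 452 after quantile normalization). For 2 of the 9, *FGFR4* and *SPRY4*, every *SOX2* KO embryo was below every WT embryo, against 2.76% of all genes, and 0 of the 9 were higher without overlap, against 6.41%. The median log2 fold change of the 9 genes was 0.27, next to 0.25 over all genes tested. Gene length was not used here, so the level of one gene is not compared with that of another.

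**Figure D1:**
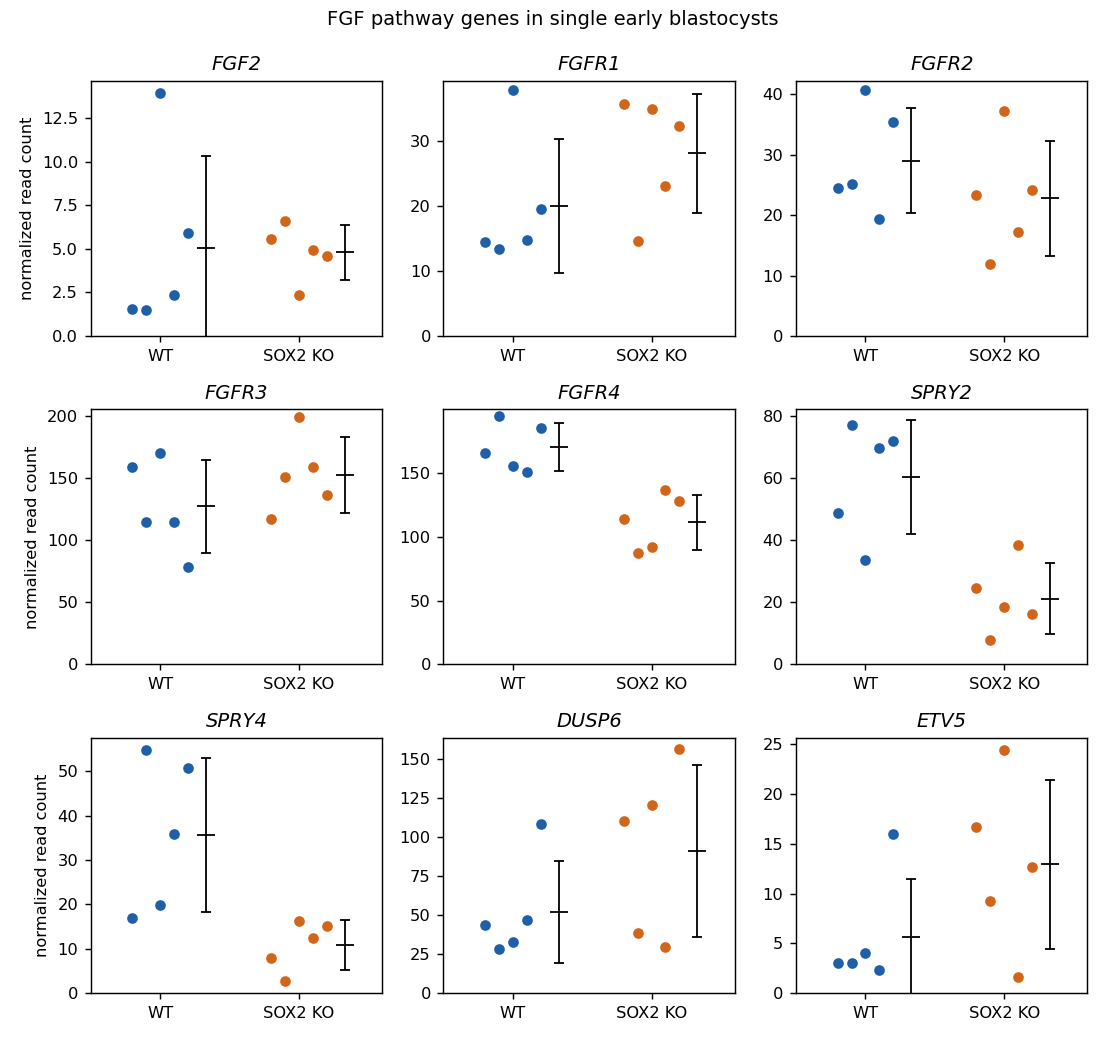
Normalized read count (vertical axis, linear from 0) of 9 FGF pathway genes in 5 WT (blue) and 5 SOX2 KO (orange) blastocysts, 1 point per embryo in the order of the table, with the mean and SD in black (lower bars end at 0 where the SD exceeds the mean). The groups are apart in FGFR4 and SPRY4, nearly so in SPRY2, and overlap in the other 6 panels.

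*FGF2*, a heparin-binding ligand known from the bovine uterus and embryo, was scarcely detected. Its normalized read counts were 1.53, 1.48, 13.9, 2.33 and 5.90 in WT and 5.57, 6.60, 2.33, 4.93 and 4.61 in *SOX2* KO embryos, from 30 and 22 reads in all. The WT embryo nc3 was the highest, and the values of the *SOX2* KO embryos lay within the range of WT. The log2 fold change was 0.27 with a 95% interval of -0.92 to 1.46 (limma adjusted p = 0.775), an interval wide enough to hold a 2-fold rise. Its sign turned negative with quantile normalization (-0.71), DESeq2 (-0.08) and edgeR (-0.15). In the RefSeq annotation of the newer assembly ARS-UCD2.0, *FGF2* overlaps *NUDT6*, which gave 77 reads in WT and 71 in *SOX2* KO. The strand setting of the counting is not given in the sources used here, so reads of the overlapping stretch cannot be assigned to one of these genes.

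No other ligand stood out. Of 22 FGF genes listed, 12 were tested, and 0 rose or fell. The log2 fold change was positive for 9 of them and negative for 3. It was largest for *FGF14*, at 1.30 from 6 reads in WT and 16 in *SOX2* KO (limma adjusted p = 0.107). The highest group mean among them was 7.91, for *FGF12* in WT, which encodes a form that stays inside the cell. *FGF9*, a secreted ligand, had 5.70 ± 3.15 in WT against 5.16 ± 2.44 in *SOX2* KO (SD, n = 5 each), and the endocrine ligand *FGF19* had 2.99 ± 3.16 and 2.75 ± 2.99 (SD, n = 5 each). The summed ligand level was 18.3 to 48.7 in WT against 22.4 to 69.0 in *SOX2* KO, so the groups overlapped, and the median log2 fold change of 0.25 equalled that of all genes.

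Among the receptors, *FGFR4* was the one that fell. It had 166, 194, 155, 151 and 185 normalized read counts in WT and 114, 87.2, 91.9, 136 and 128 in *SOX2* KO embryos. The lowest WT embryo was thus above the highest *SOX2* KO embryo, with a gap smaller than the SD of either group. Means were 170 ± 18.9 and 111 ± 21.6 (SD, n = 5 each), which is 0.654 of the WT level. This gave a log2 fold change of -0.62 with a standard error of 0.18 (limma adjusted p = 0.0250), short of the 2-fold threshold. DESeq2 and edgeR on the recovered reads gave -0.60 and -0.69 with adjusted p of 0.0145 and 0.0189. Both estimates are short of 2-fold, which is also the threshold that the study states for its differentially expressed genes. Leaving out nc1, nc2, nc5, ko1, ko2 or ko3 raised the adjusted p above 0.05, to at most 0.0646. With *RN18S1* share added to the fit as a covariate, the log2 fold change was -0.56 and the adjusted p 0.243.

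*FGFR3* had 159, 114, 170, 114 and 77.9 in WT and 117, 151, 199, 159 and 136 in *SOX2* KO embryos. The groups overlapped widely, and the log2 fold change of 0.29 had a 95% interval of -0.15 to 0.73 (limma adjusted p = 0.349). A fall as large as the estimate for *FGFR4* lies outside this interval.

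*FGFR1* had 14.5, 13.3, 37.8, 14.8 and 19.5 in WT and 35.6, 14.5, 34.9, 23.0 and 32.3 in *SOX2* KO embryos. The other WT embryos were below 20, while nc3 was the highest of all 10, and the log2 fold change of 0.51 had an interval of -0.23 to 1.25 (limma adjusted p = 0.328). *FGFR2*, whose product together with that of *FGFR1* receives the FGF4 signal in the mouse blastocyst, had 24.4, 25.2, 40.8, 19.4 and 35.4 in WT and 23.4, 11.9, 37.2, 17.3 and 24.2 in *SOX2* KO. Its groups overlapped too (log2 fold change -0.38, interval -1.08 to 0.32, limma adjusted p = 0.445). One uncharacterized locus, *LOC132343968*, overlaps *FGFR2* in ARS-UCD2.0. Reads per gene do not separate the splice forms of the receptors that bind different ligands.

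The log2 ratio of *FGFR4* to each other receptor within an embryo, in which the size factor has little part, is given as a description. These ratios, and those of the feedback genes given further on, are 7 pairs chosen after the values were seen, so no p-value is given for them. *FGFR4* against *FGFR3* had a mean log2 ratio of 0.47 ± 0.55 in WT and -0.45 ± 0.47 in *SOX2* KO (SD, n = 5 each), which differ by -0.91. Against *FGFR1* the difference was -1.13, and against *FGFR2* it was -0.24.

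The remaining receptor genes gave no call. *FGFRL1*, a receptor without a kinase domain, had 36.6 ± 16.9 in WT and 35.3 ± 9.48 in *SOX2* KO (SD, n = 5 each, log2 fold change 0.02, limma adjusted p = 0.976). *KLB*, the co-receptor of endocrine FGFs, had 13.5 ± 8.18 and 6.84 ± 1.44 (SD, n = 5 each, log2 fold change -0.58, limma adjusted p = 0.477), with 1.53 in nc1 against 10.9 or more in the other WT embryos.

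**Figure D2:**
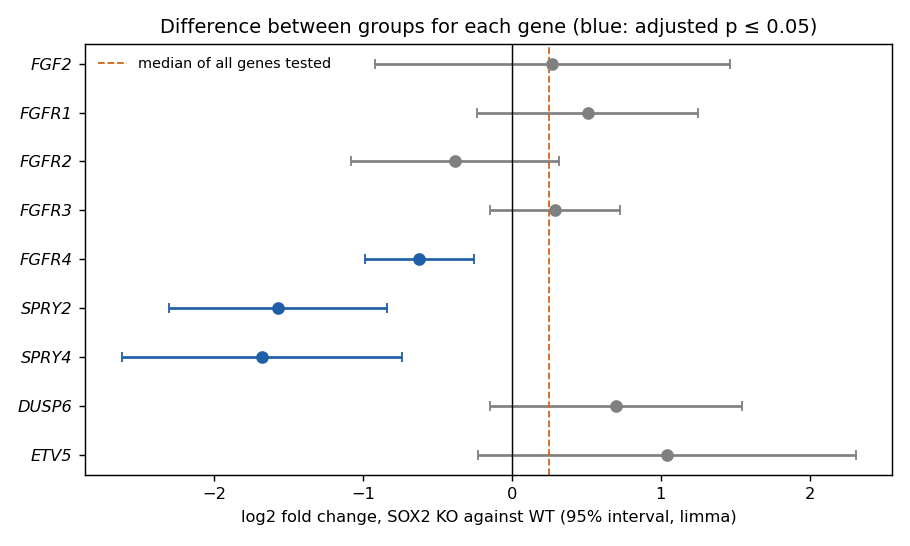
Log2 fold change of SOX2 KO against WT (horizontal axis) for the 9 genes, with the 95% interval of the limma fit over 5 embryos per group. FGFR4 at -0.62, SPRY2 at -1.57 and SPRY4 at -1.68 (blue) have an adjusted p of at most 0.05, while the 6 grey genes range from -0.38 to 1.04 (the dashed line marks the median of all genes, 0.25).

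Among the 9 genes, the largest changes that passed were in the Sprouty genes, whose products are induced by receptor signalling and hold back the activation of RAS and ERK. *SPRY4* had 16.8, 54.9, 19.9, 35.7 and 50.8 in WT and 7.79, 2.64, 16.3, 12.3 and 15.0 in *SOX2* KO embryos. The groups did not overlap, although nc1 at 16.8 and ko3 at 16.3 nearly met. The means of 35.6 ± 17.3 and 10.8 ± 5.60 (SD, n = 5 each) rest on 211 and 51 reads. On the log2 scale the change was -1.68 with a standard error of 0.45 (limma adjusted p = 0.0205), and 0.303 of the WT level remained. Its call was lost without nc2 (adjusted p = 0.0588) or nc5 (adjusted p = 0.0557), the 2 WT embryos with the highest values.

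*SPRY2* had 48.8, 77.1, 33.8, 69.9 and 72.0 in WT and 24.5, 7.92, 18.6, 38.6 and 16.1 in *SOX2* KO embryos. Only ko4, at 38.6, reached above the lowest WT embryo, nc3. Means were 60.3 ± 18.3 and 21.2 ± 11.4 (SD, n = 5 each), from 362 and 105 reads. The change of -1.57 on the log2 scale, with a standard error of 0.35 (limma adjusted p = 0.00792), kept its call in all 10 fits that left out 1 embryo, with adjusted p up to 0.0253. With the *RN18S1* share as a covariate, the log2 fold changes of *SPRY2* and *SPRY4* were -1.15 and -1.61, and both adjusted p rose above 0.05, to 0.220 and 0.213. In that fit 137 genes were called higher and 83 lower over the whole table.

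*SPRY1* went the other way, from few reads. It had 0.994 to 3.11 in WT against 3.29 to 14.5 in *SOX2* KO embryos, which is 13 and 41 reads in all, and the groups did not overlap. Means were 2.23 ± 0.87 and 9.37 ± 4.35 (SD, n = 5 each, limma adjusted p = 0.0442). Leaving out single embryos kept this adjusted p at or below 0.05 in 1 fit of 10.

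*DUSP6* encodes a phosphatase that switches off ERK in the cytoplasm and is itself a widely used readout of FGF signalling. It had 43.5, 28.2, 32.8, 46.6 and 109 in WT and 110, 38.3, 121, 29.6 and 157 in *SOX2* KO embryos. Both groups split, with 1 WT embryo (nc5) and 3 *SOX2* KO embryos (ko1, ko3 and ko5) above 100 and the other 6 below 50. The means of 51.9 ± 32.6 and 91.2 ± 55.1 (SD, n = 5 each) differed by less than the spread within *SOX2* KO, and the log2 fold change was 0.70 with an interval of -0.15 to 1.55 (limma adjusted p = 0.241).

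*ETV5*, an ETS transcription factor induced by FGF signalling, had 3.05, 2.97, 3.98, 2.33 and 15.9 in WT and 16.7, 9.24, 24.4, 1.64 and 12.7 in *SOX2* KO embryos, or 40 and 56 reads in all. Its 4 highest embryos were the same 4 as for *DUSP6*. The log2 fold change of 1.04 had an interval of -0.23 to 2.31 (limma adjusted p = 0.241), and without ko4, the lowest embryo of all, it was 1.56 with an adjusted p of 0.0434. The related factor *ETV4* had 11.9 to 28.9 in WT against 9.86 to 30.2 in *SOX2* KO (log2 fold change 0.14, limma adjusted p = 0.823), and its 4 highest values were once more in nc5, ko1, ko3 and ko5.

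**Figure D3:**
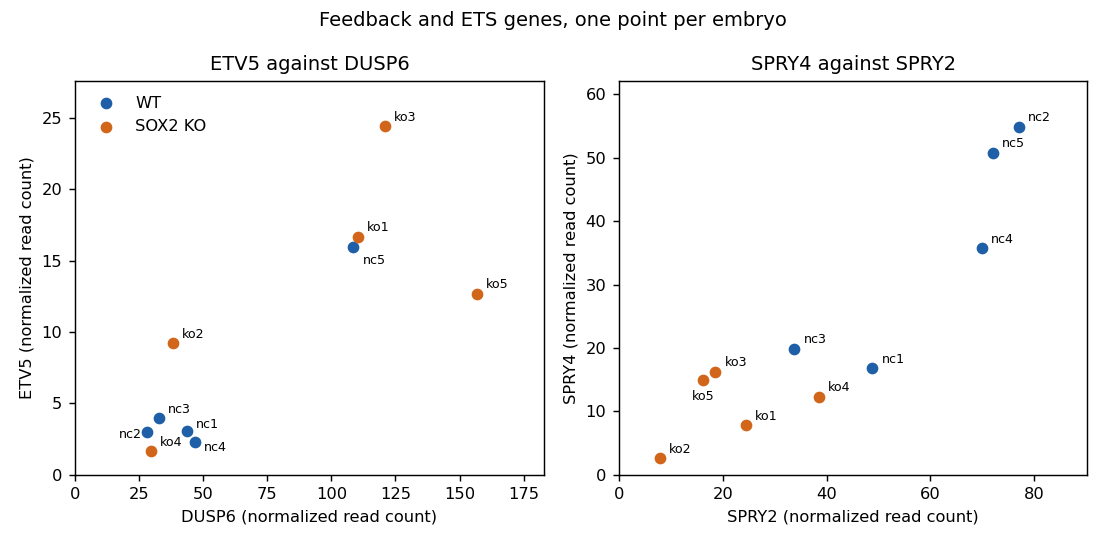
Normalized read counts in each of the 10 embryos, ETV5 against DUSP6 on the left and SPRY4 against SPRY2 on the right, with WT in blue and SOX2 KO in orange. On the left nc5, ko1, ko3 and ko5 lie apart from the rest regardless of group, and on the right nc2, nc4 and nc5 hold the highest values of both Sprouty genes.

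The ratios of the Sprouty genes to *DUSP6* and *ETV5* within embryos are again a description of pairs picked from their values, and neither *DUSP6* nor *ETV5* passed on its own. *SPRY4* against *DUSP6* had a mean log2 ratio of -0.51 ± 0.89 in WT and -2.88 ± 0.99 in *SOX2* KO (SD, n = 5 each), which differ by -2.38. For *SPRY2* against *DUSP6* the difference was -2.27, for *SPRY2* against *ETV5* it was -2.61 and for *SPRY4* against *ETV5* it was -2.72. In ko4 all 4 of these ratios lay within the range of WT. *DUSP6* and *ETV5* were at their KO minimum in that embryo.

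The other inhibitors were read from a list of 17 genes, of which 15 were tested. Of these, 4 fell, 1 rose and 10 did not pass, with a median log2 fold change of 0.12, next to 3.20% of all genes that fell, 10.4% that rose and a median of 0.25. Besides *SPRY2* and *SPRY4*, those that fell were *DUSP5*, a phosphatase that acts on ERK in the nucleus, and *ERRFI1*, an inhibitor of the EGF receptor family. *DUSP5* had 37.4, 40.0, 51.7, 52.8 and 49.6 in WT and 13.4, 21.1, 36.0, 22.2 and 23.1 in *SOX2* KO (log2 fold change -1.02, limma adjusted p = 0.0231). *ERRFI1* had 95.6 to 135 in WT against 44.9 to 81.9 in *SOX2* KO (log2 fold change -0.76, limma adjusted p = 0.0201). Neither gene had overlapping groups, and with single embryos left out they passed in 7 and 9 fits of 10. With the *RN18S1* covariate their adjusted p were 0.144 and 0.0866 (limma). *IL17RD*, also known as SEF, had 79.1 to 114 against 52.8 to 78.9 without overlap, but its log2 fold change of -0.47 did not pass (limma adjusted p = 0.101).

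Downstream of the receptors, 25 genes of adaptors and the RAS to ERK cascade were tested, and 3 rose while 0 fell. This is close to the 10.4% of all genes that rose, and the median log2 fold change was -0.05 next to 0.25 over all genes. *GAB1*, a docking protein that links receptors to PI3 kinase and the phosphatase SHP2, had 63.6 to 109 in WT against 142 to 298 in *SOX2* KO embryos (log2 fold change 1.39, limma adjusted p = 0.000272). *CBL*, a ubiquitin ligase that sends active receptors to degradation, had 151 to 249 and 308 to 461 (log2 fold change 1.03, limma adjusted p = 0.000872). For both genes the groups did not overlap, and both passed in each of the 10 fits without 1 embryo and with the *RN18S1* covariate (limma adjusted p = 0.000952 and 0.0350). *MAPK3*, which encodes ERK1, had 22.4 to 52.1 and 43.6 to 112 (log2 fold change 1.22, limma adjusted p = 0.00908). With the covariate, *MAPK3* had an adjusted p of 0.248.

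Of 20 genes that respond to ERK, 2 rose and 0 fell, which is about the 10.4% of all genes that rose. The median log2 fold change was 0.54 next to 0.25 over all genes. *MYC*, which promotes growth, had 3.05 to 29.5 in WT against 15.1 to 51.2 in *SOX2* KO (log2 fold change 1.81, limma adjusted p = 0.0206). *FOSB*, a subunit of the transcription factor AP-1, had 15 reads in WT and 49 in *SOX2* KO (log2 fold change 2.01, limma adjusted p = 0.0488, and 0.0559 with DESeq2). With single embryos left out, *MYC* passed in 7 fits of 10 and *FOSB* in 3. The study itself names *MYC* as up-regulated in these embryos, so its rise is not an independent result. With the *RN18S1* covariate neither passed (limma adjusted p = 0.106 and 0.298). For the immediate early genes *EGR1* and *FOS* the log2 fold changes were 0.23 and 0.08 (limma adjusted p = 0.742 and 0.872).

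Heparan sulphate is the sugar chain that holds FGF on its receptor. Of 20 of its genes tested, 5 rose and 0 fell, next to 10.4% and 3.20% of all genes, and the median log2 fold change was 0.32. *HSPG2*, which encodes the matrix proteoglycan perlecan, had 52.7, 29.7, 140, 28.8 and 43.1 in WT and 169, 173, 179, 98.6 and 225 in *SOX2* KO embryos (log2 fold change 1.72, limma adjusted p = 0.00276). Only nc3 reached into the range of the *SOX2* KO embryos. *SDC1*, which encodes the cell surface proteoglycan syndecan-1, had 29.0 to 41.8 and 51.2 to 112 (log2 fold change 1.02, limma adjusted p = 0.0108). *EXTL3*, an enzyme that helps to start the chain, had 23.7 ± 5.92 in WT against 48.5 ± 10.6 in *SOX2* KO (SD, n = 5 each), a rise (limma adjusted p = 0.0213). *GPC1*, which encodes the surface proteoglycan glypican-1, rose by 0.84 on the log2 scale (limma adjusted p = 0.0301), but passed in only 5 of 10 fits without 1 embryo and not with edgeR (adjusted p = 0.0628). *HS6ST2*, a sulphotransferase, had 1 read in all WT embryos together and 13 in *SOX2* KO. On the values without a floor it rose (limma adjusted p = 0.0426, and 0.0659 with DESeq2), but passed in only 2 of 10 fits without 1 embryo. With every WT embryo set to the floor of 3 reads, it was at least 1.06-fold higher, a difference that was not tested. With the *RN18S1* covariate none of these 5 genes passed, with limma adjusted p of 0.129 (*SDC1*) to 0.581 (*GPC1*).

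**Figure D4:**
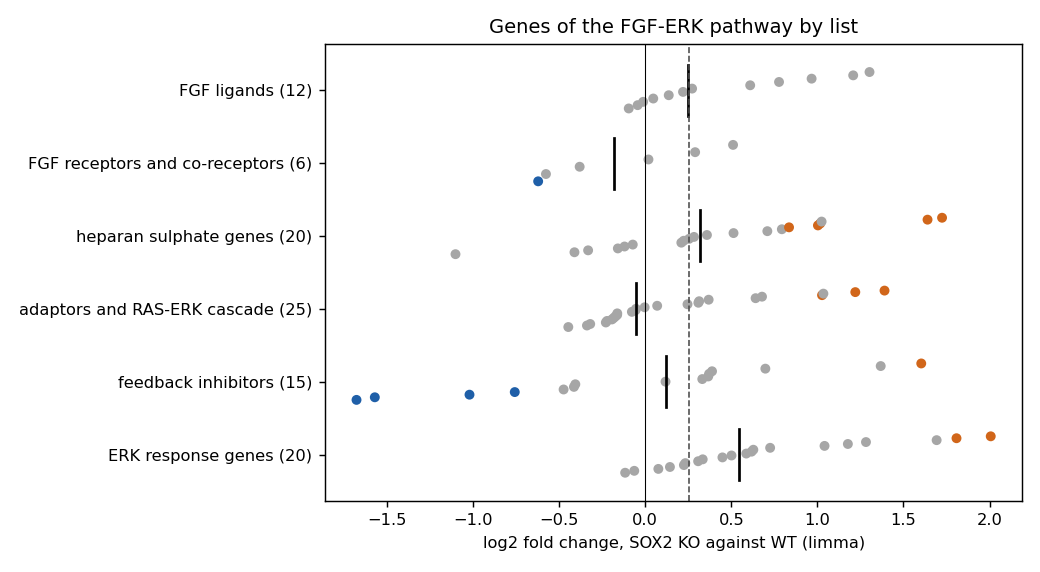
Log2 fold change of SOX2 KO against WT for every tested gene of 6 lists (number of genes in brackets), with genes that fell in blue, genes that rose in orange and the others in grey. Black bars mark the median of each list and the dashed line that of all genes, and the 5 genes that fell are FGFR4 among the receptors and SPRY4, SPRY2, DUSP5 and ERRFI1 among the inhibitors.

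Other receptor tyrosine kinases that share the ERK cascade gave a frame for *FGFR4*. Of 16 tested, 4 rose and 2 fell, next to 10.4% and 3.20% of all genes. *KIT*, a receptor of germ cells and early embryos, fell from 347 ± 59.5 to 71.4 ± 16.8 (SD, n = 5 each), and *PDGFRA*, a receptor that marks the hypoblast, fell from 207 ± 91.2 to 54.3 ± 27.4 (SD, n = 5 each). Their log2 fold changes were -2.28 and -2.01 (limma adjusted p = 4.32e-07 and 0.000709), against -0.62 for *FGFR4*. *EGFR* and *ERBB3*, of the EGF receptor family, rose by 0.68 and 0.95 on the log2 scale (limma adjusted p = 0.0100 and 0.00232), and *AXL* and *PDGFRB* rose from group means of 0.463 and 3.62 in WT.

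Markers of cell types were read in the same way, next to 10.4% of all genes that rose and 3.20% that fell. Those that did not pass numbered 8 epiblast, 6 hypoblast, 11 trophectoderm and 8 cumulus cell markers. The epiblast markers with the smallest p among the 8 that fell were *DPPA3*, *OTX2*, *NANOG*, *PRDM14*, *POU5F1* and *ZFP42*. In addition, 2 of 10 hypoblast markers fell (*HNF4A* and *PDGFRA*) and 2 rose (*APOA1* and *LAMB1*), with a summed level of 1817 to 2358 in WT against 2308 to 2733 in *SOX2* KO. Of 14 trophectoderm markers 2 rose (*DLX3* and *KRT18*) and 1 fell (*TFAP2C*), with a summed level of 25635 to 37699 against 35136 to 48162. The highest group mean of a marker was 22437 in the trophectoderm list and 958 in the hypoblast list. A large part of each sum thus comes from a single gene. Of 11 markers of cumulus cells, which surround the oocyte, 3 rose (*COL1A1*, *COL1A2* and *DCN*). The summed level of the 11 was 86.0 to 159 in WT against 176 to 297 in *SOX2* KO. On the log2 scale 10 of the 11 had a positive value and 1 a negative value. Their median was 0.64, next to 0.25 over all genes tested. The lowest value of the 11 was -0.99. Others below the median included *FSHR*, at 0.38 (limma adjusted p = 0.635), and *CYP19A1*, at 0.03 (limma adjusted p = 0.976). The part of cell numbers in the changes of *FGFR4*, *SPRY2* and *SPRY4* was not tested.

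Genes with the most similar course over the 10 embryos were looked up among 6979 other genes with a mean of at least 50. For *FGFR4* these were *KMT5B*, *ZNRD1* and *SPARC*, with Pearson correlations of log2 values of 0.95, 0.95 and 0.94. For *SPRY2* they were *SF3A3*, *LUC7L3* and *MRRF* (0.96, 0.95 and 0.95), and for *SPRY4* they were *AK4*, *METAP2* and *GRSF1* (0.95, 0.94 and 0.94). These values describe 10 embryos that share a group difference and size factors, and nothing on shared function was read from them.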

How the data were processed

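Single early blastocysts were sequenced with Smart-seq2, a method for polyadenylated RNA with PCR amplification and no molecular identifiers. Reads were trimmed (Trimmomatic), aligned to ARS-UCD1.2 (Hisat2) and assigned to genes (featureCounts). The authors deposited a normalized signal, in which DESeq2 size factors scale the counts of each embryo. The annotation release, strand setting and treatment of reads with several matches are not given in the sources used here. All 201120 values (100%) were multiples of what 1 read is worth in that embryo, within 0.001, and reads were recovered from them. No gene had fewer than 11 reads over the 10 embryos. Among 45 pairs of libraries, 0 were identical. The precision of a gene is limited by its reads, and 3 reads in an embryo served as the floor.

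Columns were assigned to groups by name. The main test was limma 3.58.1 (moderated with a mean-variance trend) on values logged to base 2 after adding 1, over 20056 genes with a mean of at least 1, all 10 embryos and no covariate. DESeq2 1.42.0 and edgeR 4.0.16 (quasi-likelihood) on the recovered reads were alternatives in R 4.3.3 and called 1836 genes higher and 238 lower, and 1686 and 299. Library values were compared with two-sided exact permutation tests in Python 3.11.15 with scipy 1.17.1. Scripts were tested on simulated data. Other alternatives were pseudocounts of 0.1 and 5, 4 rescalings, other filters, sample quality weights, the *RN18S1* share as a covariate and leaving out each embryo. The ratios within embryos were added after the values were seen, so no p-value is given for them. Whether embryos shared a day or an oocyte collection is not given, so p-values measure the spread between these embryos.

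The genes and lists were chosen with earlier results of these data known. Named genes are the 10 genes, *SOX2*, up to 6 genes of each list with an adjusted p of at most 0.05, and the 3 genes most similar to each of the 10 that fell or rose. *FGF9*, *FGF12*, *FGF14*, *FGF19*, *NUDT6*, *FGFRL1*, *KLB*, *IL17RD*, *ETV4*, *EGR1*, *FOS*, *FSHR* and *CYP19A1* were named after their values were seen. No coordinates are printed, since the RefSeq table used for names is of ARS-UCD2.0.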

Additional observations from a re-analysis of the deposited data

Results flagged for a closer look

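In 3 of the 18 groups of 5 embryos examined (9 genes in each of 2 groups), 1 embryo lay far from the other 4 of its group. For normally distributed values chance gives about 1 in 20. The rule was applied to normalized read counts without logs, a scale on which high values lie further apart, and all 3 flagged values were high. *DUSP6* had a normalized read count of 108.6 in the WT embryo nc5 while its group otherwise ranged from 28.2 to 46.6. *ETV5* had 15.9 (27 reads) in the same embryo and 2.33 to 3.98 in the others. *FGFR1* had 37.8 (38 reads) in the WT embryo nc3 and 13.3 to 19.5 in the others. Library nc5 was the deepest, with 5134855 reads and the lowest *RN18S1* share (26.4%), and nc3 had the highest *RN18S1* share of WT (37.0%). The part of these library values was not tested.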

How the results depend on the processing

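*FGFR4*, *SPRY2* and *SPRY4* stayed lower in every fit run, and passed at the adjusted p in 11 of 12 alternatives of pseudocount, scaling, filter, weights and test. The exception was the *RN18S1* covariate, under which 0 of the 9 genes passed, 0 were called lower, and of the listed pathway genes 2 rose and 0 fell, against 11 and 5. Over the fits that left out 1 embryo, 1 to 3 of the 9 genes fell, 0 to 1 rose (*ETV5*, without ko4) and 1 to 2 were called lower, with the lowest counts without nc2 or nc5. Pathway genes that rose numbered 5 (without ko5) to 17 (without ko4) in these fits, those that fell 1 (without nc5) to 5, and quantile normalization left 7 that rose. Over all genes, those called higher changed from 1792 to 1002 with a pseudocount of 5, 630 with quantile normalization, 502 with a filter at a mean of 10, 3229 with sample quality weights, 137 with the covariate, and 754 (without ko5) to 3050 (without ko4) with 1 embryo left out. Those called lower changed from 232 to 452 with quantile normalization and 83 with the covariate. The median log2 fold change of all genes was 0.25, 0.14 with equal totals, 0.34 with the median log ratio and -0.02 with quantile normalization. The ratio of *FGFR4* to *FGFR2* was -0.24, and ranged from -0.40 (without nc3) to 0.016 (without ko3), and *FGF2* reversed to -0.71, -0.076 and -0.15 with quantile normalization, DESeq2 and edgeR. The causes were not tested. Genes with few reads, such as *FGF2* and *ETV5*, are limited by depth. No paired analysis was possible because KO embryos are numbered 1 to 5 in the table and 1, 2, 3, 5 and 6 in their labels, so numbers could not be matched.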

Other observations

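The same 3 WT embryos were highest in the Sprouty genes and in *NANOG*, a core pluripotency gene. They were nc2, nc4 and nc5 for *SPRY2* (69.9 or more), *SPRY4* (35.7 or more) and *NANOG* (64.9 or more), while nc1 and nc3 had at most 48.8, 19.9 and 17.9. With 5 WT embryos there are too few for a correlation, and the pattern was noticed after the values were seen.

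The embryo ko4 differed from the other *SOX2* KO embryos in several of these genes. It had the highest *FGFR4* (136) and *SPRY2* (38.6) and the lowest *DUSP6* (29.6), *ETV5* (1.64), *ETV4* (9.86) and *SPRY1* (3.29) of its group. Other genes went another way, as its *SPRY4* (12.3) was the median of the group. Its *GAB1* (298) and *SDC1* (112) were the highest of the group and farthest from WT. The library of ko4 was the deepest of the group (4337342 reads), with the lowest *RN18S1* share (32.5%). Its *SOX2* mRNA level of 82.1 was also the highest of the group. Its *NANOG* level of 7.39 was the highest of the group too, and below that of every WT embryo.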
